A study of Homo sapiens with 6 samples.

Results

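The genes described here are 34 genes of glycolysis, lactate handling and pyruvate oxidation, listed by symbol and matched to Ensembl identifiers in the count files. All 34 of these members were found among 58243 gene identifiers, and all 34 passed the filter on low counts, which kept 23884 genes. The study measured nascent RNA in A375, a human melanoma cell line, and asked how PRL3, a protein tyrosine phosphatase encoded by PTP4A3, affects transcription. One group had been stably transfected with an empty vector (EV, 3 libraries named B1, B2 and B3), and the other with a plasmid that expresses human PRL3 carrying an HA tag (PRL3, 3 libraries named B9, B10 and B11). Both groups were kept in hygromycin B at 100 µg/ml and received 4-thiouridine at 500 µM for 20 min, a uridine analogue that enters RNA made during the pulse and lets it be purified (4sU-seq). The contrast therefore compares stably transfected, hygromycin-selected cells of a single line that carry the plasmid with or without PRL3. The sources used here do not say whether the 3 libraries of a group came from separate cultures, so p-values measure the spread between libraries, which may be technical.

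Glycolysis splits glucose into pyruvate in the cytosol and yields ATP and NADH. Its entry steps import and phosphorylate glucose and commit it at phosphofructokinase, and the lower steps, from aldolase to pyruvate kinase, recover energy from the triose phosphates. Pyruvate is then reduced to lactate by lactate dehydrogenase and exported by monocarboxylate transporters, or it is oxidized in mitochondria by the pyruvate dehydrogenase complex, which the pyruvate dehydrogenase kinases switch off. Melanoma cells, like many tumour cells, are known for high glycolysis in the presence of oxygen.

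Gene counts summed to 36532207 to 57952035 per library. PTP4A3 checks the labels, with 161, 212 and 279 normalized counts in the EV libraries and 22328, 28767 and 22065 in the PRL3 libraries (log2 fold change 6.80, standard error, SE, 0.25). Normalized counts are counts divided by the TMM-scaled library size and brought to the mean scaled size of the 6 libraries. Reads outside annotated exons on the counted strand made up 33.3% ± 6.75 of the uniquely aligned reads in EV and 66.3% ± 3.18 in PRL3 (SD, n = 3), and their part in the results below was not tested. Of 8 melanocyte lineage markers, SOX10 and S100B were lower in PRL3 under TMM (SOX10 was not called with library size alone). MITF, the lineage's transcription factor, was not called under TMM at 0.36 (SE 0.15) on the log2 scale, with all PRL3 values above all EV values, was called higher with upper-quartile scaling or library size alone, and was at -0.11 with uniquely aligned reads. MLANA and TYR had at most 2 and 1 counts in any library. Of 6 keratinocyte and epithelial markers, KRT8, KRT18 and KRT14 fell, with a summed level of all 6 of 38655 to 50134 normalized counts in EV and 12195 to 16846 in PRL3, and KRT5 and CDH1 had at most 4 and 12 counts. EPCAM, with at most 21 counts, was not called, at a log2 fold change of 1.03 (SE 0.90). The 7 blood and endothelial markers summed to only 191 to 236 normalized counts in EV and 180 to 222 in PRL3, and none of the 3 that were tested was called. Among all tested protein-coding genes, 31.6% were lower and 15.2% higher under TMM. The part of the keratins in the results was not tested.

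Most glycolysis and pyruvate genes had lower exonic counts in the purified RNA with PRL3. The paper moved to intronic reads to remove possible effects of splicing during transcription or of carried-over mRNA. Exonic counts cannot separate those effects, and their part here was not tested. With a threshold of 0.05 on the adjusted p, 26 of the 34 members were lower, 1 was higher (PDK1) and 7 were not called (edgeR's quasi-likelihood test, p adjusted by Benjamini-Hochberg over all 23884 genes). Of all genes tested, 22.7% were lower and 20% were higher. Among 14443 tested genes that code for protein, 31.6% were lower and 15.2% higher. In 27 members all PRL3 libraries were below all EV libraries, against 26.6% of all genes and 36.7% of protein-coding genes, and in 1 member (PDK1) all were above, against 29.7% and 22.2%. The 27 were the 26 lower members and SLC2A1. In bulk RNA, fewer cells that express a gene and less RNA per cell cannot be told apart.

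The median log2 fold change of the members, PRL3 against EV, was -0.85 (quartiles -1.38 and -0.50), beside 0.11 over all genes tested and -0.15 over protein-coding genes (quartiles -0.77 and 0.37). It was below -1 in 13 members, and below -1.5 in 6, namely PFKL, ALDOA, TPI1, GAPDH, PGK1 and ENO1. All of these but PFKL act between aldolase and enolase. From transport to phosphofructokinase, including the PFKFB enzymes, 6 of 11 members were lower with a median of -0.48, and from aldolase to pyruvate kinase, leaving out PGAM5, 9 of 10 were lower with a median of -1.54. All 4 members of the lactate branch were lower under TMM (median -1.04), as were 6 of the 8 pyruvate dehydrogenase complex and kinase genes (median -0.64). These blocks of steps were drawn after the values had been seen and carry no test.

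**Figure D1:**
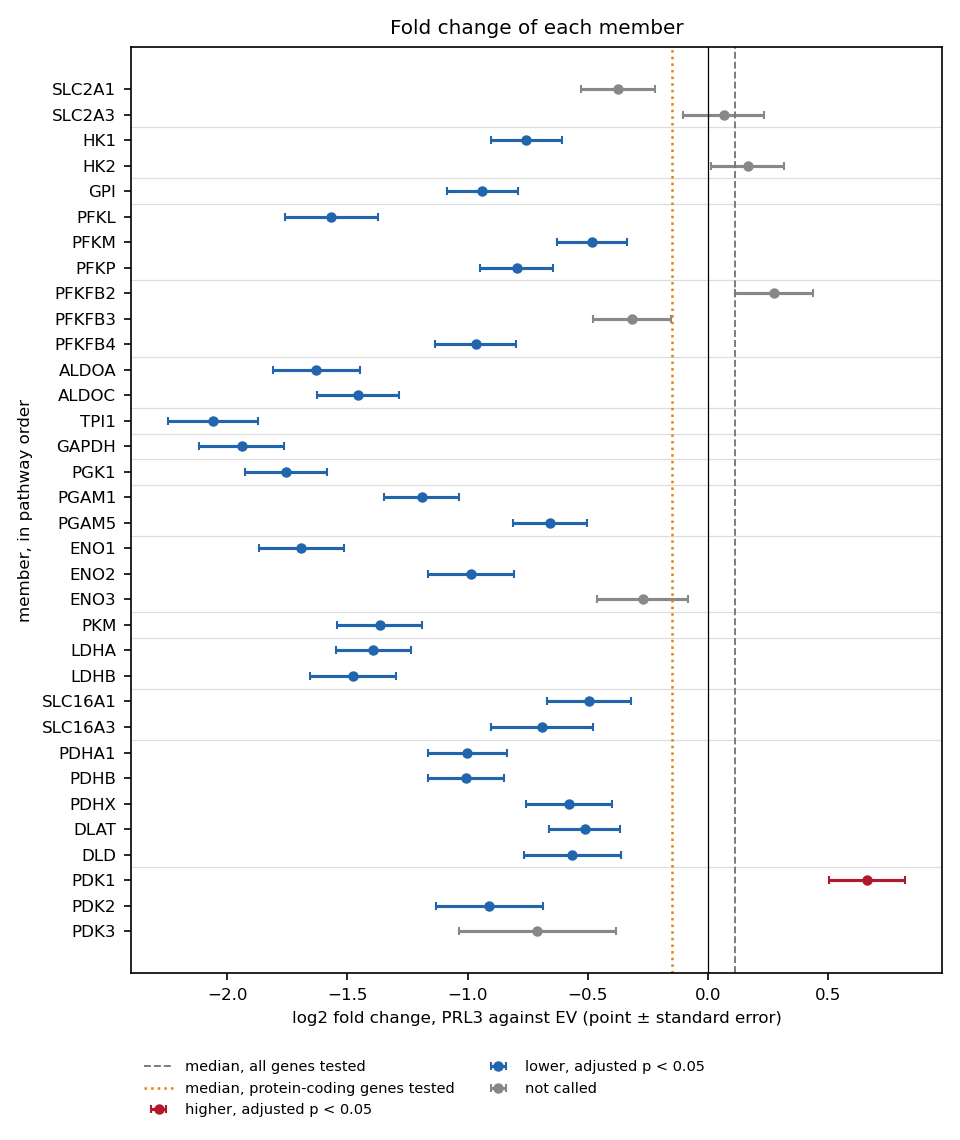
Log2 fold change of each of the 34 members, PRL3 against EV, in pathway order from glucose transport at the top to the pyruvate dehydrogenase kinases at the bottom; points are edgeR estimates and bars are ± 1 SE. TPI1 lies farthest to the left at -2.06, followed by GAPDH, PGK1, ENO1, ALDOA and PFKL, and PDK1 at 0.66 is the only one called higher; with library size alone as the scaling, SLC2A1, PFKM, PFKFB3, ENO3 and SLC16A1 move to the other side of 0, and with all uniquely aligned reads SLC2A3, HK2 and PFKFB2 do.

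How many members were called depended on the scaling between libraries. TMM factors were 0.816 to 0.894 in EV and 1.12 to 1.25 in PRL3. With library size alone the median of all genes moved from 0.11 to 0.60, and 16 members were lower and 4 higher. With upper-quartile scaling it moved to 0.29, and 20 members were lower and 2 higher. With all uniquely aligned reads as the library size it moved to -0.36, and 30 members were lower and 0 higher. A scaling moves all genes by nearly the same amount, so the members' median stood -0.95 to -0.97 from that of all genes under TMM, RLE, upper-quartile, library size and uniquely aligned reads by construction, which says nothing of stability. Among all called genes, 53.1% were lower under TMM, 81.3% with uniquely aligned reads, 24.4% with library size alone and 41.3% by the upper quartile.

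Genes with a higher level had lower log2 fold changes, among the members and elsewhere. Protein-coding genes were divided into 4 equal bins by their mean normalized count. In the top bin (from 3146 normalized counts upward) 51.7% of genes were lower, 13.3% were higher and the median log2 fold change was -0.46, while 18 of the 21 members in it were lower, 0 were higher and their median was -1.01. The next bin held 7 members, 5 lower and 1 higher, where 35.8% of its genes were lower and 17.8% higher. The bin below it held 5 members, 3 lower and 0 higher, against 27.6% and 18.9%, and the lowest held only PDK3, which was not called, against 11.6% and 10.6%. Per kilobase of exon, the log2 EV level of the members correlated with their log2 fold change with Pearson's r = -0.71 and Spearman's rho = -0.63 (34 genes), and over the 14443 protein-coding genes r was -0.46 and rho -0.44. These are descriptions across genes, which share libraries and are not independent replicates, and the EV level enters both axes.

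**Figure D2:**
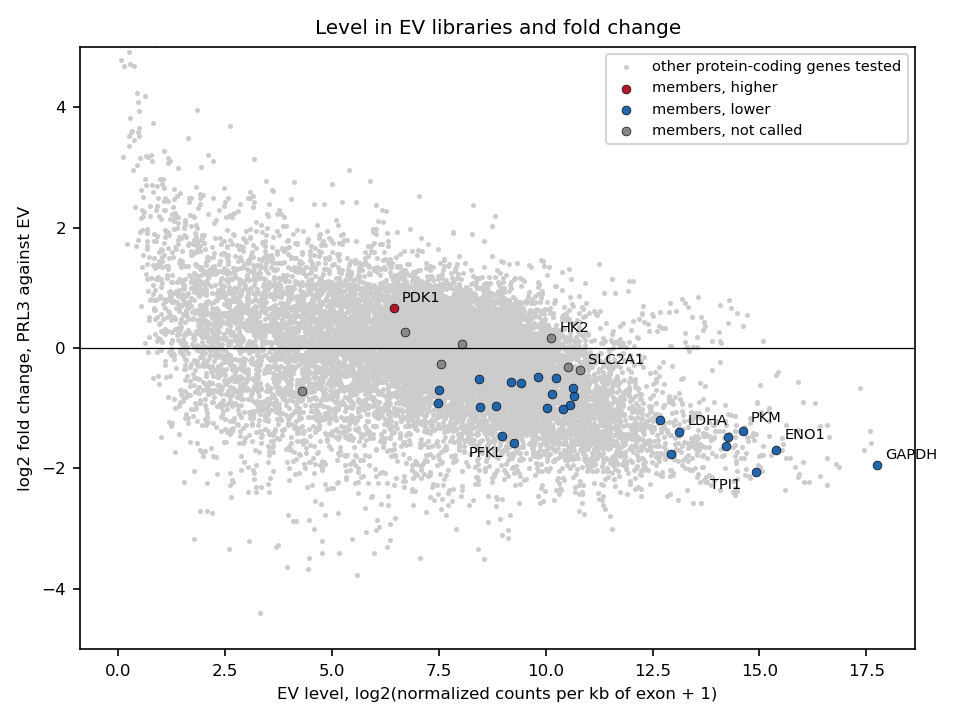
EV level of each gene, as log2 of normalized counts per kilobase of exon plus 1, against its log2 fold change in PRL3; grey points are 14424 protein-coding genes (19 lie beyond the axis limit of 5) and coloured points are the 34 members by their call. GAPDH is the member farthest to the right and PDK1 the only one called higher; the 9 members farthest to the right, from PGAM1 to GAPDH, have log2 fold changes of -1.19 to -2.06.

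Gene length went the other way. Of the 8 members whose canonical transcript spans less than 10 kb, 7 were lower with a median log2 fold change of -1.32, beside 47.1% lower and a median of -0.59 among 3367 protein-coding genes of that span. Of the 26 members that span 10 kb or more, 19 were lower and 1 higher with a median of -0.70, beside 27.0% lower and a median of -0.064 among 11076 protein-coding genes. Span and log2 fold change correlated with r = 0.50 and rho = 0.48 over the 34 members, and with r = 0.27 and rho = 0.29 over the protein-coding genes.

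The members held a smaller part of all gene counts in PRL3. Their summed counts were 2.48%, 2.67% and 2.45% of all gene counts in EV libraries B1, B2 and B3, and 1.19%, 1.31% and 1.09% in PRL3 libraries B9, B10 and B11. GAPDH alone held 0.944% ± 0.0360 of gene counts in EV and 0.346% ± 0.0437 in PRL3 (SD, n = 3). Without GAPDH the other members held 1.59% ± 0.0854 and 0.852% ± 0.0649, so both parts of the group fell. Of all uniquely aligned reads, the 34 members held 1.57% ± 0.221 in EV and 0.380% ± 0.0635 in PRL3.

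Promoter windows from RefSeq (GRCh38.p14, 250 bases before to 50 after the annotated start, 35116 windows) matched 31 of the 34 members. The start that RefSeq annotates need not be the one these cells use. Only the first window listed for each member was read, so other starts of a gene were not looked at. ENO1 and PDK1 are shown as the lower and the higher ends among called members of steps with isozymes. TPI1, the member with the largest fall, and LDHA, with the most ACGTG positions counting each strand, were added after their values were seen. Each is printed 5′ to 3′ on the gene's strand, and capitals mark ACGTG and GCGTG, the core letters of the hypoxia response element, on either strand (read as CACGT and CACGC on the other). They lie at chr1:8878637-8878936 (ENO1, minus strand), chr2:172555123-172555422 (PDK1, plus), chr12:6867281-6867580 (TPI1, plus) and chr11:18394313-18394612 (LDHA, plus).
ENO1: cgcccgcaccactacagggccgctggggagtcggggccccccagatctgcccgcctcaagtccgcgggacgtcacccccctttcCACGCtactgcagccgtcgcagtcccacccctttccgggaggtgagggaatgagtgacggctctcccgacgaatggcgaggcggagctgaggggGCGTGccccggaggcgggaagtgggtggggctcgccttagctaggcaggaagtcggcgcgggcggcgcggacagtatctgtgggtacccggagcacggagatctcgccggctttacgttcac
PDK1: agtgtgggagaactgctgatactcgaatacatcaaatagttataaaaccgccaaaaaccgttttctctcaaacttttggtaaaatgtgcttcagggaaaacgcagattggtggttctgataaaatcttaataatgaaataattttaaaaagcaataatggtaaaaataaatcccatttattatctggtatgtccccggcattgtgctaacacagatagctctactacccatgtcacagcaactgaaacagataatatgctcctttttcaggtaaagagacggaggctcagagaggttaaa
TPI1: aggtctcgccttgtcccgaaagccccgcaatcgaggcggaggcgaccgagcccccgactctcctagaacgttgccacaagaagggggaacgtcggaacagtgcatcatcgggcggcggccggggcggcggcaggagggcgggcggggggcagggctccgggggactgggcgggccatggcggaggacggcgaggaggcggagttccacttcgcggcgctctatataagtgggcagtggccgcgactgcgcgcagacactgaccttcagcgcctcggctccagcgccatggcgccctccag
LDHA: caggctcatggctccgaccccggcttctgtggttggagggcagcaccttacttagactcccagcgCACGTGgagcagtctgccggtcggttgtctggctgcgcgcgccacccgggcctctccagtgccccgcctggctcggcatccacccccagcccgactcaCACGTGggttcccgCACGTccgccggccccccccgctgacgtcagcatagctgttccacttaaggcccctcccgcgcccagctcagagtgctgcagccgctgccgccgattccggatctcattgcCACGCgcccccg

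The LDHA window held ACGTG at 5 positions, counting each strand, while the ENO1 window held none and the TPI1 and PDK1 windows held neither pattern. Each of the 2 CACGTG stretches of LDHA counts on both strands. PGK1 had 3 positions and no CACGTG, so a count of separate stretches would not set LDHA apart from it. ACGTG was present in 11 of the 31 member windows (35.5%) and in 21.4% of all windows, and in 9 of the 25 windows of lower members and 2 of the 6 others. GCGTG was present in 58.1% of member windows and 36.5% of all. CACGTG, the E-box, which overlaps ACGTG, was in 12.9% against 7.26%, TATAAA in 9.68% against 11.5%, and GGGCGG, the GC box, in 74.2% against 45%, each read on both strands. The median GC content was 70.0% in member windows and 58.7% in all windows, and the PDK1 window had 36.33%. A match is a description of the sequence only, and the part of such letters in the fold changes was not tested.

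Glucose enters through facilitative transporters. SLC2A1 (ENSG00000117394, chr1:42925353-42958893), which encodes the widespread transporter GLUT1, had 10727, 12242 and 12386 normalized counts in EV libraries B1, B2 and B3 and 8338, 10528 and 8407 in PRL3 libraries B9, B10 and B11. The groups did not overlap, but the log2 fold change of -0.37 (SE 0.15, adjusted p = 0.0643) did not pass the threshold, and it was 0.11 with library size alone. SLC2A3 (ENSG00000059804, chr12:7919230-8019007), for the high-affinity transporter GLUT3, had 1925, 1569 and 2259 in EV and 2149, 2069 and 1805 in PRL3. Its groups overlapped, and its log2 fold change was 0.066 (SE 0.17, adjusted p = 0.784) under TMM. With library size alone it was called higher. SLC2A14, its near-identical copy, had a mean of only 10.1 normalized counts in EV and 7.29 in PRL3.

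The hexokinases trap glucose by phosphorylation, and HK1 was called lower while HK2 was not called. Their ratio is tested further on. HK1 (ENSG00000156515, chr10:69269984-69401884), the constitutive form, had 8266, 8242 and 6862 normalized counts in EV and 4446, 4992 and 4406 in PRL3, with no overlap. It fell, with a log2 fold change of -0.76 (SE 0.15, adjusted p = 0.00114). HK2 (ENSG00000159399, chr2:74834127-74893359), the inducible form of muscle and many tumours, had 6703, 5714 and 7344 in EV and 6835, 8006 and 7316 in PRL3. Those values overlapped, and the log2 fold change was 0.17 (SE 0.15, adjusted p = 0.408); with library size alone it was 0.65 and called higher. GPI (ENSG00000105220, chr19:34359480-34402413), the single isomerase that turns glucose 6-phosphate into fructose 6-phosphate, fell from 15282, 18210 and 15558 to 8828, 8915 and 7841, a log2 fold change of -0.94 (SE 0.15, adjusted p = 0.000249).

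Phosphofructokinase-1 commits the sugar to glycolysis, and each of its 3 subunit genes was lower under TMM. PFKL (ENSG00000141959, chr21:44300051-44327376), the liver-type subunit, had 4401, 6537 and 5435 normalized counts in EV and 1558, 2298 and 1670 in PRL3. It fell 2.96-fold, with a log2 fold change of -1.57 (SE 0.19, adjusted p = 4.13e-05). PFKP (ENSG00000067057, chr10:3066333-3137718), the platelet-type subunit, went from 11377, 14489 and 11730 to 7262, 7722 and 6667, with a log2 fold change of -0.80 (SE 0.15, adjusted p = 0.00104). PFKM (ENSG00000152556, chr12:48105139-48146404), the muscle-type subunit, went from 6947, 6655 and 6064 to 4502, 5193 and 4382. None of the 3 genes overlapped between groups. The fall of PFKM was the smallest, at -0.48 (SE 0.14, adjusted p = 0.0160) on the log2 scale under TMM, against 0.011 with library size alone.

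The PFKFB genes encode the bifunctional enzymes that make and remove fructose 2,6-bisphosphate, the activator of phosphofructokinase-1. PFKFB4 (ENSG00000114268, chr3:48517684-48562015) had 2290, 3139 and 2935 normalized counts in EV and 1408, 1585 and 1286 in PRL3. It was lower without overlap, with a log2 fold change of -0.97 (SE 0.17, adjusted p = 0.000499), and UCN2, which shares 298 bp of exon with it, also had lower values in PRL3 (449 to 638 normalized counts, against 810 to 1325 in EV). PFKFB3 (ENSG00000170525, chr10:6144934-6254644), a form with strong kinase activity, had 7724, 9427 and 9874 in EV and 6394, 8476 and 6845 in PRL3. These overlapped, and its log2 fold change of -0.32 (SE 0.16, adjusted p = 0.135) was not called and turned to 0.17 with library size alone. PFKFB2 (ENSG00000123836, chr1:207034366-207081024), the heart form, had 1108, 1058 and 984 in EV and 1108, 1399 and 1302 in PRL3. B9 equalled EV B1 after rounding, the other PRL3 libraries were above, and the log2 fold change of 0.27 (SE 0.16, adjusted p = 0.196) was not called under TMM. With library size alone it was called higher.

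Aldolase splits fructose 1,6-bisphosphate into 2 triose phosphates, and both of its member genes fell. ALDOA (ENSG00000149925, chr16:30064164-30070457), the main aldolase outside liver and brain, had 63144, 85015 and 70619 normalized counts in EV and 20557, 28231 and 21949 in PRL3. Every PRL3 value was below every EV value, and the gene fell 3.09-fold, with a log2 fold change of -1.63 (SE 0.18, adjusted p = 2.10e-05). ALDOC (ENSG00000109107, chr17:28573115-28576948), the brain-type aldolase, had 1310, 1432 and 1193 in EV and 515, 471 and 447 in PRL3. It fell by a like amount, -1.46 (SE 0.17, adjusted p = 2.95e-05) on the log2 scale, from a level per kilobase far lower than that of ALDOA (502 against 19046 normalized counts per kb in EV).

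TPI1 (ENSG00000111669, chr12:6867119-6870948) encodes triosephosphate isomerase, which interconverts both triose phosphates. It had 77491, 97807 and 74140 normalized counts in EV and 17080, 24531 and 18261 in PRL3. No member fell further under TMM, with 4.17-fold lower counts and a log2 fold change of -2.06 (SE 0.19, adjusted p = 9.85e-06), and it stayed at -1.57 with library size alone and -2.54 with uniquely aligned reads. GAPDH (ENSG00000111640, chr12:6534512-6538374), the dehydrogenase that makes the NADH of glycolysis and is often used as a reference gene, had 527657, 569179 and 489039 in EV and 134119, 161156 and 118149 in PRL3. It fell 3.84-fold, with a log2 fold change of -1.94 (SE 0.18, adjusted p = 9.73e-06). Per kilobase it had the highest level of the 34 members in both groups, 220628 normalized counts per kb in EV and 57516 in PRL3.

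PGK1 (ENSG00000102144, chrX:77910739-78129295) encodes phosphoglycerate kinase, the first step that yields ATP. Its normalized counts were 45986, 45126 and 36486 in EV and 10936, 14781 and 12082 in PRL3, without overlap, and its log2 fold change was -1.76 (SE 0.17, adjusted p = 1.29e-05). PGAM1 (ENSG00000171314, chr10:97426191-97433444), phosphoglycerate mutase, had 16701, 17656 and 15584 in EV and 6232, 8383 and 7269 in PRL3. It fell 2.28-fold, with a log2 fold change of -1.19 (SE 0.16, adjusted p = 6.30e-05). PGAM5 (ENSG00000247077, chr12:132710819-132722734) shares the family name but encodes a mitochondrial protein phosphatase. It had 5926, 6794 and 6112 in EV and 3741, 4613 and 3585 in PRL3, and its log2 fold change of -0.66 (SE 0.15, adjusted p = 0.00362) passed the threshold.

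Of the 3 enolase genes, 2 were called lower. ENO1 (ENSG00000074800, chr1:8861000-8879190), the ubiquitous enolase, had 221117, 243381 and 206738 normalized counts in EV and 62962, 84138 and 60829 in PRL3. It fell 3.23-fold, with a log2 fold change of -1.69 (SE 0.18, adjusted p = 1.64e-05). ENO2 (ENSG00000111674, chr12:6913745-6923698), the neuronal enolase, had 1610, 1675 and 1229 in EV and 708, 854 and 717 in PRL3, again without overlap, and a log2 fold change of -0.98 (SE 0.18, adjusted p = 0.000692). ENO3 (ENSG00000108515, chr17:4948092-4957131), the muscle enolase, had 720, 977 and 694 in EV and 606, 696 and 676 in PRL3, and 1 PRL3 library lay above 1 EV library. Its log2 fold change of -0.27 (SE 0.19, adjusted p = 0.273) was not called and was 0.22 with library size alone.

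PKM (ENSG00000067225, chr15:72199029-72231819) encodes the pyruvate kinase of most tissues, which closes glycolysis with ATP and pyruvate, and the counts do not separate its splice forms. It had 213528, 251151 and 180282 normalized counts in EV and 81343, 94192 and 74841 in PRL3. The groups lay well apart, with 2.58-fold lower counts in PRL3 and a log2 fold change of -1.37 (SE 0.18, adjusted p = 5.63e-05).

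**Figure D3:**
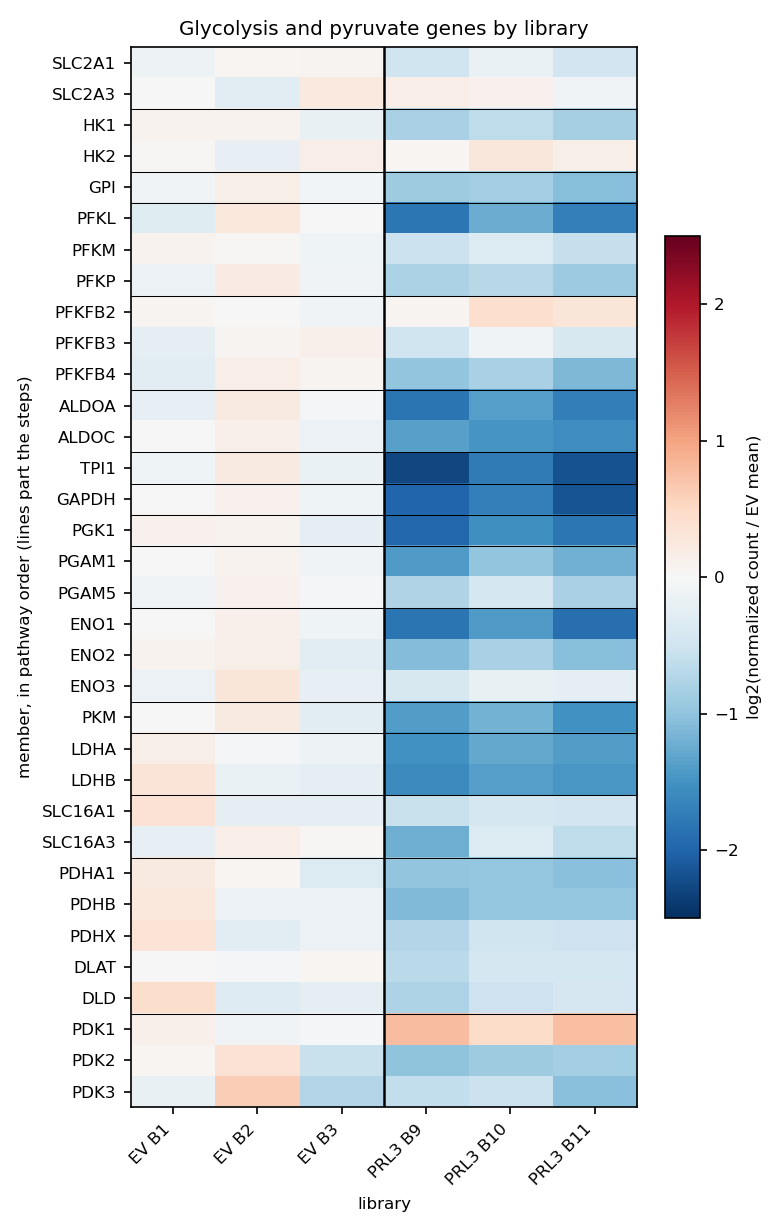
Each member (rows, in pathway order, with lines between steps) in each of the 6 libraries (columns), coloured by log2 of its normalized count over the EV mean of that member. The PRL3 columns are darkest blue for TPI1, GAPDH, PGK1, ENO1, ALDOA and PFKL and nearly white for ENO3, the PDK1 row is red in all 3 PRL3 libraries, and EV replicate B2 stands out upward for PDK3.

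All 4 genes of the lactate branch fell under TMM, though SLC16A1 had a log2 fold change of 0.0031 with library size alone. LDHA (ENSG00000134333, chr11:18394560-18408425), the subunit of lactate dehydrogenase that favours lactate formation, had 60376, 52867 and 49299 normalized counts in EV and 19016, 22236 and 20710 in PRL3. LDHB (ENSG00000111716, chr12:21635342-21757857), the heart-type subunit, had 73760, 52509 and 50053 in EV and 19415, 22732 and 21296 in PRL3. Both separated the groups, with log2 fold changes of -1.39 (SE 0.16, adjusted p = 2.17e-05) for LDHA and -1.47 (SE 0.18, adjusted p = 3.64e-05) for LDHB. SLC16A1 (ENSG00000155380, chr1:112911847-112957593), which encodes the lactate transporter MCT1, had 9837, 6563 and 6527 in EV and 5162, 5651 and 5468 in PRL3. EV B1 stood above the other EV libraries, and its log2 fold change was -0.49 (SE 0.18, adjusted p = 0.0363). SLC16A3 (ENSG00000141526, chr17:82217934-82261129), for the lactate exporter MCT4, had 1447, 1871 and 1699 in EV and 717, 1314 and 1079 in PRL3. Its lowest value was in PRL3 B9, and its log2 fold change was -0.69 (SE 0.21, adjusted p = 0.0185).

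The pyruvate dehydrogenase complex turns pyruvate into acetyl-CoA, and all 5 of its genes on the list were lower under TMM. PDHA1 (ENSG00000131828, chrX:19343893-19361718), the alpha subunit of its first enzyme and the target of the kinases, had 6060, 5374 and 4096 normalized counts in EV and 2597, 2653 and 2507 in PRL3. PDHB (ENSG00000168291, chr3:58427630-58433857), the beta subunit, had 7692, 5792 and 5782 in EV and 2980, 3307 and 3301 in PRL3. Both separated the groups, with log2 fold changes of -1.001 (SE 0.17, adjusted p = 0.000344) for PDHA1 and -1.01 (SE 0.16, adjusted p = 0.000249) for PDHB.

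The core and linking components of the complex had log2 fold changes nearer to 0. DLAT (ENSG00000150768, chr11:112025408-112064404), the acetyltransferase core, had 2603, 2506 and 2702 normalized counts in EV and 1630, 1931 and 1915 in PRL3, a log2 fold change of -0.51 (SE 0.15, adjusted p = 0.0130). DLD (ENSG00000091140, chr7:107891162-107931730), the dihydrolipoamide dehydrogenase that other complexes share, had 4040, 2376 and 2492 in EV and 1737, 2073 and 2217 in PRL3. PDHX (ENSG00000110435, chr11:34915829-35020591), the protein that binds it to the core, had 3207, 2118 and 2302 in EV and 1534, 1792 and 1787 in PRL3. For both, EV B1 was far above the other EV libraries, and the log2 fold changes were -0.56 (SE 0.20, adjusted p = 0.0392) for DLD and -0.58 (SE 0.18, adjusted p = 0.0191) for PDHX.

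Of the 3 kinases that inactivate the complex, 1 rose, 1 fell and 1 was not called. PDK1 (ENSG00000152256, chr2:172555373-172608669) had 1381, 1201 and 1238 normalized counts in EV and 2161, 1743 and 2139 in PRL3. All PRL3 values were above all EV values, and it rose with a log2 fold change of 0.66 (SE 0.16, adjusted p = 0.00452), against 0.18 (adjusted p = 0.439 from the same test) with uniquely aligned reads as the library size. PDK2 (ENSG00000005882, chr17:50094737-50112152) had 991, 1236 and 657 in EV and 480, 522 and 533 in PRL3. It was lower without overlap, with a log2 fold change of -0.91 (SE 0.22, adjusted p = 0.00515). PDK3 (ENSG00000067992, chrX:24465244-24550466) had 285, 498 and 195 in EV and 213, 226 and 157 in PRL3, the lowest level per kilobase of the 34 members. Its groups overlapped and it was not called, at -0.71 (SE 0.33, adjusted p = 0.0962) on the log2 scale. Without EV B3 its log2 fold change was -0.99 (adjusted p = 0.0130) and without EV B2 -0.26 (adjusted p = 0.527).

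Ratios of 2 genes inside a library do not depend on the scaling between libraries, so 16 pairs of members were compared in that way. In 10 pairs the 2 groups of libraries did not overlap, each with a two-sided exact permutation p of 0.1, the smallest that 3 libraries against 3 allow, and 0.16 after Benjamini-Hochberg adjustment over the 16 pairs. No pair could therefore pass a threshold of 0.05. The share of other gene pairs without overlap was not worked out. Among single genes tested, all PRL3 libraries were below all EV libraries in 26.6% and above them in 29.7%. The log2 ratio of HK2 to HK1 was -0.24 ± 0.32 in EV and 0.68 ± 0.056 in PRL3 (SD, n = 3), a difference of 0.92. Since the counts are not per length, only the change of such a ratio is read.

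Within phosphofructokinase-1, the log2 ratio of PFKM to PFKL went from 0.28 ± 0.33 to 1.37 ± 0.18, and that of PFKP to PFKL from 1.21 ± 0.14 to 1.99 ± 0.24. The log2 ratio of PFKFB4 to PFKFB2 was 1.40 ± 0.30 in EV and 0.17 ± 0.18 in PRL3. PFKFB3 to PFKFB2 differed by -0.59 and SLC2A1 to SLC2A3 by -0.46, PRL3 minus EV. Among the enolases, the log2 ratio of ENO2 to ENO1 was higher by 0.73 and that of ENO3 to ENO1 by 1.45. PDK1 to PDK3 went from 2.07 ± 0.72 to 3.35 ± 0.41.

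Other partners kept ratios that overlapped between the groups. The log2 ratio of LDHA to LDHB was -0.10 ± 0.16 in EV and -0.034 ± 0.0055 in PRL3 (exact permutation p = 1), and that of PDHA1 to PDHB was -0.32 ± 0.20 and -0.30 ± 0.10 (exact permutation p = 0.9). ALDOC to ALDOA differed by 0.18, DLAT to DLD by 0.012, SLC16A3 to SLC16A1 by -0.26 and PDK2 to PDK3 by -0.24. Between the 2 fates of pyruvate, the log2 ratio of LDHA to PDHA1 was 3.40 ± 0.16 in EV and 2.995 ± 0.11 in PRL3, a difference of -0.41 with no overlap.

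**Figure D4:**
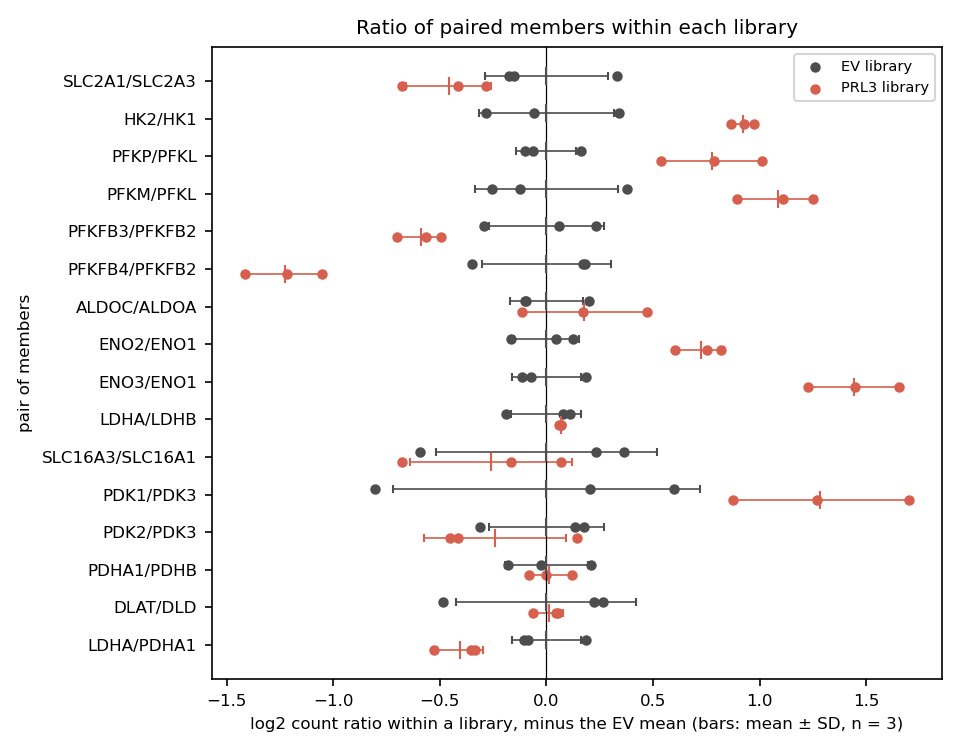
Log2 ratio of the counts of 2 members within each library, minus the mean of the 3 EV libraries, for the 16 pairs; points are libraries (dark for EV, red for PRL3) and bars are mean ± SD (n = 3). HK2/HK1, PFKM/PFKL, ENO3/ENO1 and PDK1/PDK3 lie to the right of their EV points and PFKFB4/PFKFB2 to the left, while LDHA/LDHB, PDHA1/PDHB and DLAT/DLD lie around 0.

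Several members have close copies in the genome whose reads can be split in counting. For 15 members, 112 pseudogenes with the same symbol stem were in the count files. Their share of the combined counts of a member and its pseudogenes was at most 10.7% in any library, reached by PGAM1, where it was 2.63% in EV and 8.19% in PRL3 (highest copy PGAM1P7). For GAPDH, with 65 such pseudogenes, it was 1.02% and 1.28%, and for TPI1 1.02% and 2.21%. It passed 1% in some library for 6 members. Reads that align to more than 1 place were counted for no gene, so these shares do not show their loss. Non-unique alignments numbered 17140710 to 32460113 per EV library and 12409441 to 22891383 per PRL3 library. Their part in the results was not tested. PGAM4, a near-identical copy of PGAM1, had 130 ± 92.2 normalized counts in EV and 12.8 ± 6.63 in PRL3. The 97 bp that PGK1 shares with ATP7A, and the 298 bp that PFKFB4 shares with UCN2, were 1.78% and 4.88% of their exonic length. GPI shares 542 bp (5.07%) with ENSG00000266953, which had no counts in the 6 libraries. In the later annotation ALDOA and LDHB share 42.8% and 33.4% of their exonic length with ENSG00000285043 and ENSG00000285854, which are not among the identifiers in the count files.

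The calls that rested on few libraries were the small ones. Of the 27 calls, 16 stayed as they were in all 16 alternative settings. Leaving out 1 library gave 20 to 27 lower members, with 20 without PRL3 B9 and 21 without PRL3 B11, and 1 higher member each time. Without PRL3 B9 the adjusted p was 0.0722 for PFKM, 0.126 for SLC16A1, 0.0973 for SLC16A3, 0.0953 for PDHX, 0.0796 for DLAT and 0.164 for DLD. Without PRL3 B11 it was 0.0972 for PFKM, 0.109 for SLC16A1, 0.0559 for SLC16A3, 0.0554 for PDHX and 0.0700 for DLD. Without PRL3 B10 it was 0.0752 for SLC16A1 and 0.0874 for DLD. Without EV B1 the log2 fold changes of DLD, SLC16A1 and PDHX were -0.28, -0.27 and -0.38 (adjusted p = 0.158, 0.127 and 0.0533), and without EV B2 that of SLC16A3 was at -0.59 (adjusted p = 0.0571). SLC2A1, on the other side of the threshold, was called without EV B1 (adjusted p = 0.0364) or PRL3 B10 (adjusted p = 0.0430), with RLE scaling, uniquely aligned reads, DESeq2 and limma-voom, and PFKFB3 was called without EV B1 (adjusted p = 0.0472). Apart from those 2 tools, all these p-values are edgeR's, adjusted over the genes tested.

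**Figure D5:**
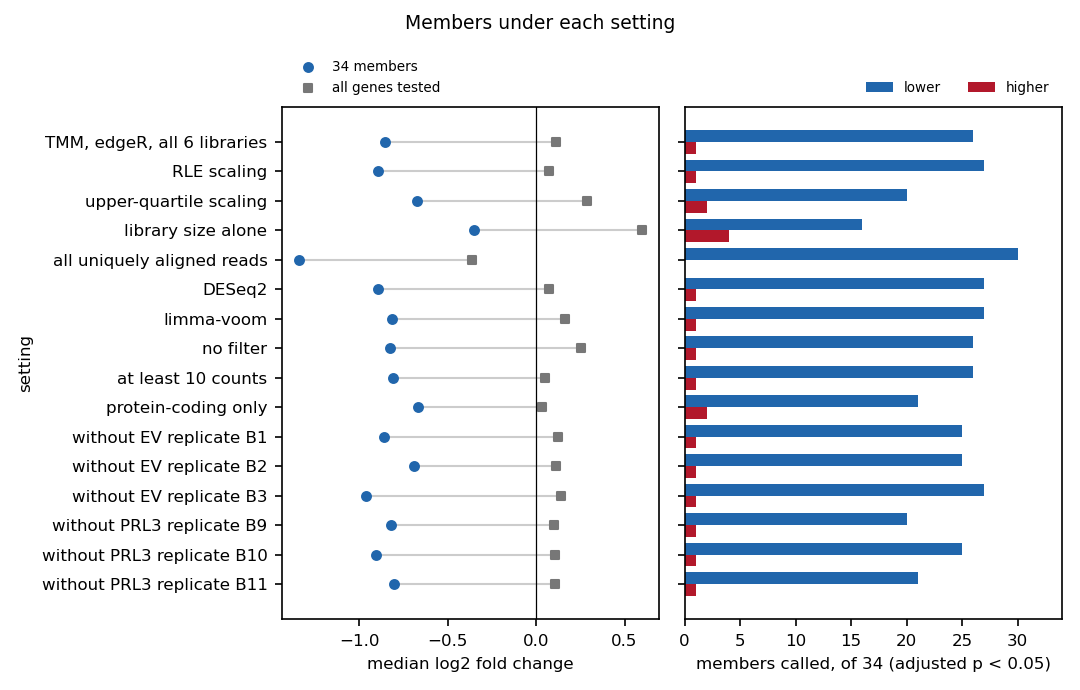
Median log2 fold change of the 34 members and of all genes tested (left) and number of members called lower or higher at an adjusted p of 0.05 (right), for the setting reported and 15 alternatives. The members' median lies below that of all genes in every setting, at -0.70 to -1.11 from it, while both move with the scaling, and the bars run from 16 to 30 members lower.

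Genes that feed or branch from the pathway were counted in lists of their own. Of 37 other glycolysis and pyruvate genes, 24 were tested, 8 were lower and 2 higher, with a median log2 fold change of -0.50 (-0.012 with library size alone). Over protein-coding genes 31.6% were lower and 15.2% higher, so the share of this list that was lower is near that background. BSG, the chaperone that brings MCT1 and MCT4 to the cell surface, had the smallest p of the lower genes, going from 30055 ± 8246 to 7220 ± 1433 normalized counts (SD, n = 3; log2 fold change -2.06, SE 0.21). MPC1 and MPC2, which together form the mitochondrial pyruvate carrier, fell by 1.42 (SE 0.23) and 1.11 (SE 0.16) on the log2 scale. The other lower genes were HKDC1, PCK2, G6PC3, PC and GPD2.

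The higher genes of that list were PDP1 and SLC16A7. PDP1, the phosphatase that reactivates pyruvate dehydrogenase by reversing its kinases, rose from 5085 ± 938 to 10323 ± 438 normalized counts (log2 fold change 1.02, SE 0.16), and it was called higher under all 5 scalings. PDP1 and PDK1, with opposite actions on the same enzyme, were thus both higher under TMM. SLC16A7, for the monocarboxylate transporter MCT2, had a log2 fold change of 0.69 (SE 0.24), and 0.20 with uniquely aligned reads, where it was not called. PDK4 and PDP2 were not called, at 0.056 (SE 0.32) and 0.021 (SE 0.15). BPGM, TIGAR and ADPGK were not called either, at -0.15, -0.17 and -0.15.

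Of 8 genes of the pentose phosphate pathway, which branches off at glucose 6-phosphate and makes NADPH and ribose, 7 were lower and 0 higher (median -0.95), and 4 lower and 1 higher with library size alone. TALDO1, transaldolase, had the smallest p with a log2 fold change of -1.68 (SE 0.18). RPE was not called, at 0.29. Of 14 genes of the tricarboxylic acid cycle, which takes up the acetyl-CoA, 12 were lower and 1 higher (median -0.85), and 8 lower and 1 higher with library size alone. IDH3B, a subunit of the NAD-dependent isocitrate dehydrogenase, had the smallest p, with a log2 fold change of -1.69 (SE 0.15), and SUCLG2, a subunit of succinyl-CoA ligase, was the higher one at 0.39 (SE 0.14), against -0.093 with uniquely aligned reads. Over protein-coding genes 31.6% were lower and 15.2% higher under TMM. In the top bin by level 51.7% were lower and 13.3% higher, and in the next 35.8% and 17.8%. The part of level in these 2 lists was not tested.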

How the data were processed

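The 6 libraries (3 EV, 3 PRL3) hold 4sU-labelled RNA of A375 cells. Per the labels and the study's methods, the authors used STAR 2.5.1b to align read pairs to GRCh38 and deposited raw counts of reads per Ensembl 91 gene from htseq-count (HTSeq 0.6.1) with its reverse-strand setting. FastQC 0.11.3 is also named in the submitters' processing notes. Only exonic reads of the expected strand enter these counts, so intronic nascent RNA is not in them. Rows that name no gene stayed out of the tests and of the library sizes, except where totals of uniquely aligned reads were used. Those totals include reads on no feature and ambiguous reads. Reads on no feature were 28.7% to 69.1% of uniquely aligned reads.

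Symbols, coordinates and exonic lengths came from GENCODE 44 on the same build (57532 of 58243 identifiers matched, and all 34 members). The comparison used edgeR 4.0.16 (R 4.3.3): TMM scaling, filterByExpr by group, the quasi-likelihood test of PRL3 against EV over 23884 genes, Benjamini-Hochberg adjustment and a threshold of 0.05. The study's methods use DESeq2, which was run as an alternative (1.42.0). Standard errors were derived from the F statistic. Single members and ratios were given a two-sided exact permutation test (smallest p 0.1, scipy 1.17.1). The procedure was tested on simulated data, where it recovered 119 of 200 genes set to differ 2-fold (59.5%). It also called 8 of 22545 genes left unchanged. A share of differing genes as large as that called in these libraries was not tested. No 2 libraries were alike within counting noise (mean chi-square per gene at least 24.7), which does not show that they came from separate cultures. Each was counted as 1 replicate. No member had under 146 counts in any library, so the spread between libraries and not counting limits precision.

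The members, lists and pairs were chosen with earlier results of these data known. All 34 members are named, and of each other list the called gene with the smallest p in each direction and those a result turns on. Other names, the blocks of steps and the TPI1 and LDHA windows were chosen after their values were seen. Alternatives were scaling by RLE, by the upper quartile or by library size alone, all uniquely aligned reads as library size, DESeq2, limma-voom (limma 3.58.1), no filter beyond 1 count, at least 10 counts in every library, protein-coding genes only, an adjusted p of 0.01, pseudogene counts added to the ratios, and leaving out each library. Counting the other lists under each scaling was added after seeing the data. Protein sequences were not used here.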

Additional observations from a re-analysis of the deposited data

Results flagged for a closer look

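The reads that the authors' counting placed outside annotated exons were counted for no gene in the report. Apart from their own share, they enter only the totals of uniquely aligned reads, used as a library size and as a denominator. They made up 66.3% of uniquely aligned reads in PRL3 libraries (62.8% to 69.1%) and 33.3% in EV libraries (28.7% to 41.1%), without overlap (two-sided exact permutation p = 0.1, the smallest that 3 libraries against 3 allow). The files do not place these reads on genes, so none can be credited to a glycolysis or pyruvate gene.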

How the results depend on the processing

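No paired analysis was possible because the EV and PRL3 libraries share no replicate number. With library size alone, 16 members were lower and 4 higher, the members' median log2 fold change was -0.35, and 3078 genes were lower and 9514 higher. Those 4 members were PDK1, HK2, SLC2A3 and PFKFB2. The direction then turned for SLC2A1 (0.11), PFKM (0.011), PFKFB3 (0.17), ENO3 (0.22) and SLC16A1 (0.0031), none of them called, and HK1, PFKP, PGAM5, SLC16A3, PDHX, DLAT, DLD and PDK2 were no longer called. With all uniquely aligned reads as library size, 30 members were lower and 0 higher (median -1.34), 8473 genes were lower and 1952 higher, SLC2A3 (-0.40), HK2 (-0.31) and PFKFB2 (-0.20) turned without being called, and the members' share of reads differed by -1.19 percentage points in place of -1.33. Upper-quartile scaling gave 2 higher members and a median of -0.68, and protein-coding genes alone gave 2 and -0.67. At an adjusted p of 0.01, 20 members and 4144 genes were lower, and 2719 genes were higher. Leaving out 1 library moved the median between -0.69 (without EV B2) and -0.96 (without EV B3). SLC2A3, not called when 1 library was left out, ranged from -0.043 (without EV B2) to 0.19 (without EV B3). In these settings the construction moves every gene by the scaling, the genes tested or the libraries kept; other causes were not tested. RLE, DESeq2, limma-voom and both other count filters moved no member's direction and lost none of the 27 calls. Of 112 ratio values under alternatives, 105 kept their direction. Those that did not were LDHA to LDHB without EV B1 (-0.028), PDHA1 to PDHB without EV B1 (-0.0017), EV B3 (-0.078) and PRL3 B9 (-0.041), and DLAT to DLD without EV B1 (-0.23), PRL3 B9 (-0.010) and PRL3 B10 (-0.0047), all pairs whose groups overlapped. Leaving out 1 library, their highest values were 0.12 (LDHA to LDHB), 0.12 (PDHA1 to PDHB) and 0.14 (DLAT to DLD). With 2 libraries in a group the exact p cannot fall below 0.1, so those ratios are values only.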

Other observations

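Genes that feed or regulate the pathway were counted in the same fit. Of 11 genes of glycogen metabolism, which stores and releases glucose, 4 were lower and 0 higher under TMM, with a median log2 fold change of -0.32 (0.18 with library size alone), where 31.6% of protein-coding genes were lower and 15.2% higher. PYGB, the brain-type glycogen phosphorylase, fell from 61821 ± 8379 to 24724 ± 2669 normalized counts (SD, n = 3; log2 fold change -1.32, SE 0.16), and PGM1, GYS1 and PGM2 were the other lower genes. Of 17 regulators of glycolytic transcription, 2 were lower and 2 higher, with a median of 0.044. HIF1A, the oxygen-regulated subunit of the hypoxia factor, was at -0.090 (SE 0.16, adjusted p = 0.676), and MYC, an activator of many glycolytic genes, at 0.24 (SE 0.19, adjusted p = 0.339) (both edgeR, adjusted over all genes tested). HIF1A turned to 0.41 and was called higher with library size alone, and it was at -0.57 and called lower with uniquely aligned reads. VHL and EGLN2, which mark the hypoxia factor for degradation, had log2 fold changes of 0.52 (SE 0.14) and 0.62 (SE 0.17) and were called higher, though not with uniquely aligned reads. MLX and FOXK2 were lower, at -0.52 and -0.53, but not with upper-quartile scaling or library size alone.

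Hypoxia-inducible genes outside glycolysis went both ways. Of 16 listed, 15 were tested, 6 were lower and 3 higher under TMM (median -0.31), against 2 lower and 4 higher with library size alone and 8 lower and 0 higher with uniquely aligned reads. Both shares under TMM lie near those over protein-coding genes (31.6% lower and 15.2% higher). ANGPTL4, a secreted regulator of lipoprotein lipase, had 353 ± 110 normalized counts in EV and 83.2 ± 15.2 in PRL3 (log2 fold change -2.09, SE 0.31). CA9, a carbonic anhydrase at the cell surface, had a log2 fold change of -2.86 (SE 0.81) from at most 42 counts in any library. The other lower genes were BNIP3, P4HA1, P4HA2 and DDIT4, at -0.54 to -0.59, and none of these 4 was called with library size alone. KDM3A, a histone demethylase, NDRG1, a stress-response gene, and VEGFA, the angiogenic growth factor, had log2 fold changes of 0.70 (SE 0.16), 0.63 (SE 0.14) and 0.67 (SE 0.18). Their direction was that of PDK1, which also has hypoxia as a known inducer, while LDHA, PGK1, ALDOA and ENO1, with the same known inducer, were lower. Of 7 markers of dedifferentiated melanoma cells, AXL, NGFR and SOX9 were lower and TEAD1 and JUN higher under TMM. With library size alone 2 were lower and 4 higher, and with uniquely aligned reads 3 were lower and 0 higher. Of 5 fibroblast markers, COL1A2 was lower under TMM, and 3 were lower with uniquely aligned reads. Both marker lists stand beside the same shares over protein-coding genes, 31.6% lower and 15.2% higher.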
